A study of Homo sapiens with 6 samples.

Results

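PLLP, PPEF2, FAM83A and NRSN1 held the 4 largest shares of the estimated read counts in every RNA-seq sample of this series, and together they took between 27.80% and 37.80% of the counts on annotated genes. They are 4 of 34834 genes with a quantified transcript, and they were chosen by their share of estimated counts. That share is therefore described here and not tested, whereas its difference between the groups, the transcripts that carried it and their sequence were no part of the choice. The lowest share inside the choice was that of NRSN1 (mean 3.145% of gene counts) and the highest outside it that of BEST1 (2.291%).

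The samples came from SKOV3, an established human ovarian cancer cell line, 48 h after transfection with 50 nM of pooled siRNA by lipid reagent. In 3 samples the pool targeted DNM3OS, a long non-coding RNA linked to epithelial-to-mesenchymal transition (EMT), and in 3 it was a non-targeting control, so both groups carry the effects of transfection and differ by the siRNA sequence. All 6 are samples of 1 cell line, with no statement that they came from separate cultures, so that p-values measure the spread between these samples. Libraries were made from total RNA with a stranded kit after depletion of ribosomal RNA, and paired reads were assigned to Ensembl transcripts of GRCh38 by kallisto, a program that matches reads to transcripts through short words rather than by alignment. The total estimated count per sample ran from 1610937 to 1995888 (a count of 3 corresponds to at most 1.862 CPM, the count scaled to the size of the library). The level of DNM3OS itself was not analysed here, so the values hold no check of the knockdown. Of the 14 markers of SKOV3 and ovarian epithelium, KRT8, a keratin of simple epithelia, had between 1195 and 2566 counts and ERBB2, the receptor tyrosine kinase amplified in this line, between 311 and 872, while MUC1 was at 0 in every sample.

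The 4 genes belong to unrelated families and are known from tissues other than ovarian epithelium. PLLP encodes plasmolipin, a multi-pass membrane proteolipid of the MARVEL family found in myelin and in apical membranes of epithelia, and NRSN1 encodes neurensin-1, a vesicle protein of neurites. PPEF2 encodes a serine/threonine phosphatase with EF-hand calcium-binding motifs that is expressed in photoreceptors. FAM83A encodes an adaptor of EGFR signaling that is raised in several carcinomas.

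PLLP had the largest count of all genes in each sample, with 292968, 360861 and 345608 estimated counts in DNM3OS knockdown replicates 1, 2 and 3 and 373811, 275289 and 361626 in control replicates 1, 2 and 3. These counts were 15.68%, 22.25% and 22.11% of the gene counts of the knockdown samples and 20.52%, 18.07% and 20.58% of those of the controls. Knockdown replicate 1 was the lowest of the 6, and the other two knockdown samples were the highest. PPEF2 was next in every sample, with shares of 5.288%, 7.279% and 7.875% in the knockdown and 7.464%, 6.720% and 7.551% in the controls, and again knockdown replicate 1 was the lowest. FAM83A held 4.161%, 4.750% and 4.249% in the knockdown and 4.045%, 5.090% and 4.323% in the controls. NRSN1 held 2.671%, 3.261% and 3.566% in the knockdown and 3.169%, 2.964% and 3.239% in the controls. For each gene the values of the groups overlapped.

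**Figure D1:**
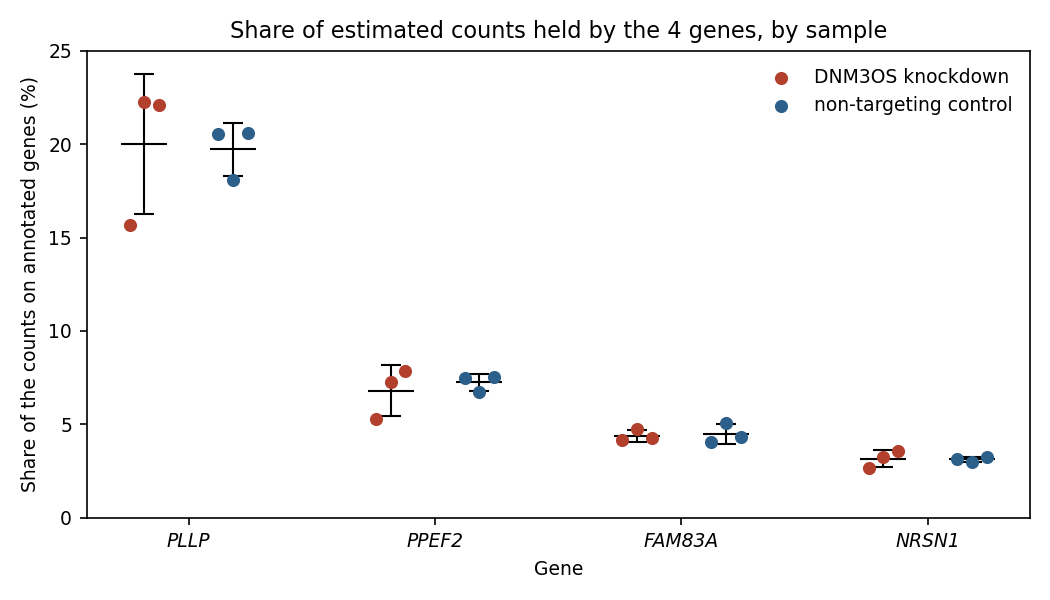
Share of the estimated counts on annotated genes (y axis, %) held by each of the 4 genes (x axis) in the 3 DNM3OS knockdown and 3 control samples; points are samples, bars the mean and SD. PLLP lies between 15.68% and 22.25% and NRSN1 between 2.671% and 3.566%, and the groups overlap for every gene.

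Counts grow with transcript length, so the order of the genes was also read from TPM, which divides by effective length (the number of positions from which a fragment could start). By TPM, FAM83A ranked first of all genes in every sample, with 164666 to 205046 TPM, or 16.47% to 20.50% of a sample's total. PLLP came second in every sample with 28616 to 43748 TPM. PPEF2 had 18026 to 28916 TPM and NRSN1 16568 to 23794 TPM, and these ranges overlapped, although PPEF2 was the higher of the pair within each of the 6 samples. FAM83A thus stood apart from the other three genes beyond their spread, PLLP and PPEF2 overlapped only at their edges, and PPEF2 and NRSN1 were not separated across samples. The 4 genes together made up 22.79% to 29.29% of TPM. For scale, ACTB, a cytoskeletal actin, had 55.00 to 196.2 TPM and GAPDH, a glycolytic enzyme, 18.11 to 333.4 TPM in the same samples.

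In each of the 4 genes a single transcript carried nearly all of the counts. PLLP-205 (ENST00000613167, 7578 bases, 4 exons), annotated as protein-coding, had a mean of 335019 counts. It left a mean of 8.551 to the other transcripts of PLLP, with 2.333 for PLLP-201, another coding transcript of 1512 bases. PPEF2-204 (ENST00000511880, 4163 bases, 18 exons), annotated as a target of nonsense-mediated decay, held 99.99% of those of PPEF2, while PPEF2-201, the 3414-base coding transcript, had 0 counts in every sample. FAM83A-206 (ENST00000523412), a 500-base transcript with no defined coding sequence, held 99.97% of those of FAM83A, and FAM83A-202, a coding transcript of 5393 bases, had a mean of 18.99 counts. NRSN1-204 (ENST00000378491, 2354 bases in the quantified set) held between 98.56% and 99.83% of a sample's NRSN1 counts, and ENST00000378478 had the next largest mean of the gene (257.1). Ranked by TPM in place of counts, the leading transcript was the one named here for 4 of 4 genes. FAM83A-206 had an effective length of 341.7 to 349.3 positions and PLLP-205 one of 7420 to 7427, and TPM divides by this length.

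The leading transcripts were next compared with 33 sequences of abundant structural RNAs (7SL, 7SK, ribosomal, spliceosomal, U3 and other small RNAs), none of which has a row of counts of its own among the 173259 transcripts analysed here. 7SL RNA, transcribed from RN7SL1 and RN7SL2, is the scaffold of the signal recognition particle, which brings ribosomes that make secreted and membrane proteins to the endoplasmic reticulum. Alu repeats, which descend from 7SL RNA and share its end sequences, are common in introns and untranslated regions (UTRs). The first search was an alignment by blastn with at least 50 aligned bases at 80% identity, run on 32 of the sequences, without the U3 copy at the FAM83A locus. On the antisense strand of 7SL RNA it matched PLLP-205, PPEF2-204 and NRSN1-204, but also 7286 transcripts in all, and in the sense orientation it matched 6106, among them PLLP-205. PLLP-205 also matched SNORD3A, a U3 RNA gene, in the sense orientation (91 bases at 84.61% identity), as 1 of 864 transcripts. With at least 100 aligned bases these 32 sequences matched 0 of the 4. Exact words of 31 bases were therefore searched as well, a choice made after the values were seen. That is kallisto's default word length, and the length used by the authors is not given in the sources used here.

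Each of the 4 leading transcripts held an exact stretch that is the reverse complement of a structural RNA, and none held a 31-base word of the sense strand of one. In PLLP-205 the stretch was 41 bases long and antisense to bases 245 to 285 of RN7SL1. It lies at bases 5041 to 5081 of the transcript, in the 3′ UTR part of exon 4 (chr16:57251536-57251576, minus strand, GRCh38), in an interval that is not exonic in ARL2BP, the gene on the other strand. Its 11 words occur in no other quantified transcript of the annotation. In PPEF2-204 the stretch was 39 bases long and antisense to bases 22 to 60 of RN7SL1. It lies at bases 1712 to 1750, in the 655-base exon 11 of 18, downstream of the annotated stop codon (chr4:75881445-75881483, minus strand). Of its 9 words, 6 occur in no other transcript, and no other quantified transcript of PPEF2 holds any. In NRSN1-204 the stretch was 40 bases long and antisense to bases 40 to 79 of RN7SL2. It lies in the 3′ UTR part of exon 4 (chr6:24146596-24146635, plus strand), and its 10 words also occur in the NRSN1 transcript ENST00000378478 and in 15 other genes. The sequence searched for NRSN1-204 was the annotated one of 2380 bases, while the quantified one had 2354.

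**Figure D2:**
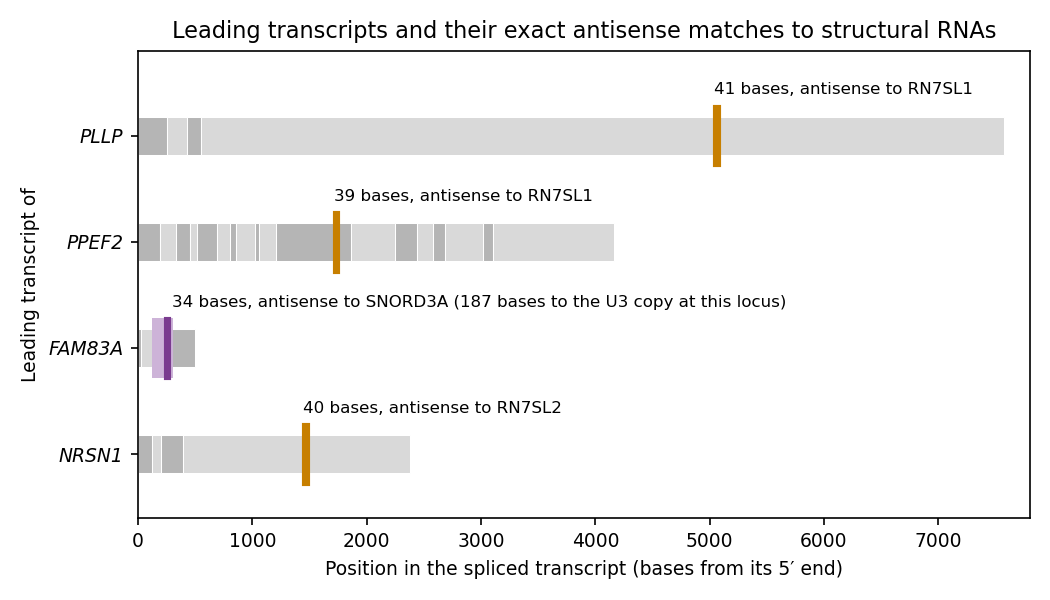
The leading transcript of each gene drawn to scale (x axis, bases from the 5′ end), with exons in alternating grey and the exact antisense match to RN7SL1, RN7SL2 (orange) or SNORD3A (purple) in color. The matches to these 3 RNAs span 41, 39, 34 and 40 bases in PLLP, PPEF2, FAM83A and NRSN1, the match of FAM83A to the U3 copy at its own locus (pale purple) spans 187, and the transcripts are 7578, 4163, 500 and 2380 bases long in the annotation.

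FAM83A-206 matched another RNA. U3, a small nucleolar RNA that guides early cleavages of the ribosomal RNA precursor, is annotated as SNORD3A and as many scattered copies. A copy of 216 bases (ENSG00000221461) lies on the strand opposite to FAM83A at 123180310 to 123180525 of chromosome 8, and 184 of its bases overlap exon 3 of FAM83A-206, which is 378 bases long. Bases 120 to 306 of FAM83A-206 are exactly antisense to this copy (187 bases, 157 words, 86.57% of the copy). The stretch begins at the end of exon 2, outside the interval of the copy, and runs across the splice junction into exon 3. To SNORD3A itself, 34 bases of exon 3 were an exact antisense match (bases 36 to 69 of SNORD3A). The 4 words of this stretch occur also in FAM83A-207, a transcript with a mean of 0.5354 counts, and in no transcript of another gene. Aligned over 183 bases, FAM83A-206 was 75.41% identical to the reverse complement of SNORD3A, which is below the identity asked of the blastn search.

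Among the transcripts of these genes, nearly all counts lay on those that hold such a stretch. The genes and their leading transcripts were picked by counts, so this follows from each leading transcript holding a stretch and is not a test. Of 26 quantified transcripts of the 4 genes, 6 held one, namely PLLP-205, PPEF2-204, FAM83A-206, FAM83A-207, NRSN1-204 and ENST00000378478 of NRSN1, and their mean counts summed to 581247. The mean counts of the other 20 summed to 72.15, and none of them passed 43.05 counts in any sample. FAM83A-207 and ENST00000378478 hold the same words as the leading transcript of their gene, with means of 0.5354 and 257.1 counts. Reads of a shared stretch fit both transcripts, so these values do not show whether a stretch goes with a high count. Where along a transcript the reads fell is not part of the deposited values, so that the share of counts from reads within the stretches was not tested.

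Across all genes, 450 quantified transcripts held at least 1 word antisense to RN7SL1 or RN7SL2, and 452 held at least 1 in the sense orientation. The antisense transcripts had 29.86% of all counts on average, of which the leading transcripts of PLLP, PPEF2 and NRSN1 made up all but 1.303% to 1.604% of a sample's counts. The sense transcripts, none of which leads a member gene, had 1.392% on average and 1.271% to 1.701% of a sample's counts. Outside the members, which were chosen for their counts, the shares of both orientations thus overlapped. Without the leading transcripts of members, the medians were 14.10 counts antisense and 18.99 sense, with highest means of 2183 and 2625. Among transcripts with at least 9 words, the number in PPEF2-204, 17 were antisense and 12 sense, the latter with a median of 43.52 counts. The 14 of these antisense transcripts that do not lead a member gene had a median of 85.70 counts, and the highest was ADCY9 (ENST00000574721, antisense to bases 256 to 297 of RN7SL1) with a mean of 2183. The highest of the 12 sense transcripts was TAOK1 (ENST00000577583) with a mean of 167.1, and it holds bases 40 to 79 of RN7SL2, the interval to which NRSN1-204 (mean 52767) is antisense. The 11 words of PLLP-205 occur in their sense form in 6 transcripts, whose mean counts summed to 174.7 against 335019 for PLLP-205. Those of NRSN1-204 occur in sense form in 19 transcripts that summed to 752.9, against 1515 on the 17 transcripts of other genes that hold them antisense. The words of PPEF2-204 are more widespread, and outside PPEF2 their sense form had the larger sum, with 21290 on 365 transcripts (highest GATC, 2625) against 16697 on 359 transcripts of other genes that hold them antisense and a mean of 118491 for PPEF2-204. For SNORD3A, 12 antisense transcripts held 4.221% of counts, and without FAM83A no more than 0.02274%, while 5 sense transcripts held 0.01161%. How kallisto was told to treat the strand of the reads is not given in the sources used here. Without strand, reads of an RNA and of its antisense partner cannot be told apart, and the part of strand in these counts was not tested.

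**Figure D3:**
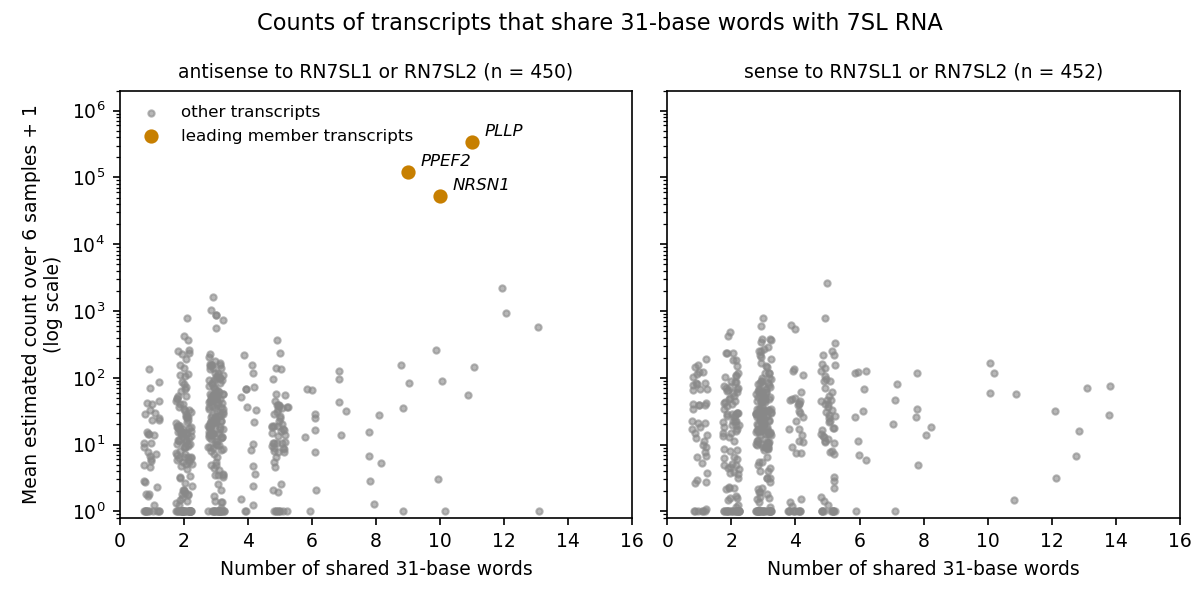
Mean estimated count over the 6 samples plus 1 (y axis, log scale) against the number of 31-base words shared with RN7SL1 or RN7SL2, whichever shares more (x axis), for 450 antisense (left) and 452 sense transcripts (right). The leading transcripts of PLLP, PPEF2 and NRSN1 (orange) have means of 335019, 118491 and 52767, and no other transcript in either panel passes 2625.

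To determine whether DNM3OS knockdown changed the 4 genes, counts were summed per gene and compared with edgeR's exact test after TMM scaling, with Benjamini-Hochberg adjustment over the 11814 genes that passed the filter on low counts. The threshold for a call was an adjusted p below 0.05 together with a 2-fold change in either direction. None of the 4 genes was called, and 1 gene of 11814 was (0.00846%). This was BORCS7-ASMT, a readthrough gene that shares exons with its neighbors and whose counts are uncertain for that reason, at 2.281 CPM in the knockdown and 14.59 CPM in the controls (adjusted p = 0.005501, edgeR's exact test). It was not called by edgeR's quasi-likelihood test or by DESeq2, nor in 3 of the 6 fits that left out a sample (knockdown replicate 3, control replicate 2 or control replicate 3), which called other genes. At an unadjusted p below 0.05 the exact test gave 345 genes, and the 4 genes were not among them.

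PLLP averaged 207498 ± 61688 CPM in the knockdown and 201960 ± 18820 CPM in the controls (SD, n = 3 each), a log2 fold change of 0.04 ± 0.29 (SE). PPEF2 averaged 70697 ± 21678 and 74170 ± 6206 CPM, a log2 fold change of -0.07 ± 0.30 (SE). FAM83A averaged 44937 ± 8072 and 45804 ± 4494 CPM, a log2 fold change of -0.03 ± 0.18 (SE). NRSN1 averaged 32689 ± 8377 and 31971 ± 2114 CPM, a log2 fold change of 0.03 ± 0.24 (SE). The adjusted p from edgeR's exact test was 1 for each, and the two-sided exact permutation test on log2 CPM gave p = 1 for each, where the smallest p of the design is 0.1. The differences were smaller than the spread between replicates. The knockdown and control values of all 4 genes overlapped, while across the tested genes 942 of 11814 (7.97%) had values that did not. In cultures such as these, fewer cells with an RNA and less of it per cell cannot be told apart. The shares of gene counts gave the same picture, with knockdown minus control differences of 0.2865 percentage points for PLLP, -0.4308 for PPEF2, -0.09926 for FAM83A and 0.04258 for NRSN1, and exact permutation p between 0.8 and 1.

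By share of gene counts, FAM83A was lowest in control replicate 1 (4.045%, against 4.161% in knockdown replicate 1). By CPM after TMM scaling, knockdown replicate 1 was the lowest sample for each of the 4 genes. It had 136270 CPM of PLLP against 180229 to 243710 CPM in the other 5 samples, 45961 CPM of PPEF2 against 67012 to 86388, 36159 CPM of FAM83A against 41978 to 52040 and 23217 CPM of NRSN1 against 29554 to 39123. Without this sample the log2 fold changes became 0.28 for PLLP, 0.17 for PPEF2, 0.12 for FAM83A and 0.24 for NRSN1, all with an adjusted p of 1 in edgeR's exact test. Other measures of this library are not independent of the 4 genes, since they were taken over all genes or all gene counts. The chi-square per degree of freedom of knockdown replicate 1 against the other knockdown samples was 13.18 and 13.76, whereas the other pairs within a group gave 2.272 to 5.169. The 16 housekeeping mRNAs took 0.06472% of its gene counts, against 0.1273% to 0.3349% in the other samples. The 13 mitochondrial mRNAs took 0.4286%, against 0.3254% to 0.4131%, the latter in knockdown replicate 3. The 4 genes held 27.80% of the gene counts of knockdown replicate 1 and 32.85% to 37.80% in the other samples. A lower share of the 4 genes raises the shares of the rest, so the mitochondrial value does not by itself set this library apart. The part of these differences in the values of the 4 genes was not tested.

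PLLP, PPEF2 and NRSN1, which match 7SL RNA, moved together across the 6 samples, with Pearson's r of log2 CPM of 0.9749 for PLLP and PPEF2, 0.9848 for PLLP and NRSN1 and 0.9796 for PPEF2 and NRSN1. FAM83A, whose words are antisense to U3, correlated with PLLP, PPEF2 and NRSN1 at 0.6938, 0.6884 and 0.6715. This split of the genes rests on the word search, which was chosen after the values were seen. These r are descriptions over 6 samples of 2 groups that share library sizes, and knockdown replicate 1 is at the low end of all of them. In control replicate 2, FAM83A was the second highest of the 6 samples while PLLP, PPEF2 and NRSN1 were each second lowest. Many genes ran parallel to the 4, since 597 tested genes had r above 0.9 with PLLP, 871 with PPEF2, 534 with NRSN1 and 130 with FAM83A. The most similar were ATAD3A (r = 0.9994) and CFAP410 (0.9961) to PLLP, ILK (0.9966) and RARRES2P2 (0.9963) to PPEF2, EIF2B1 (0.9992) and TRIR (0.9979) to NRSN1, and an unnamed gene (ENSG00000242531, 0.9901) and SMIM22 (0.9899) to FAM83A.

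**Figure D4:**
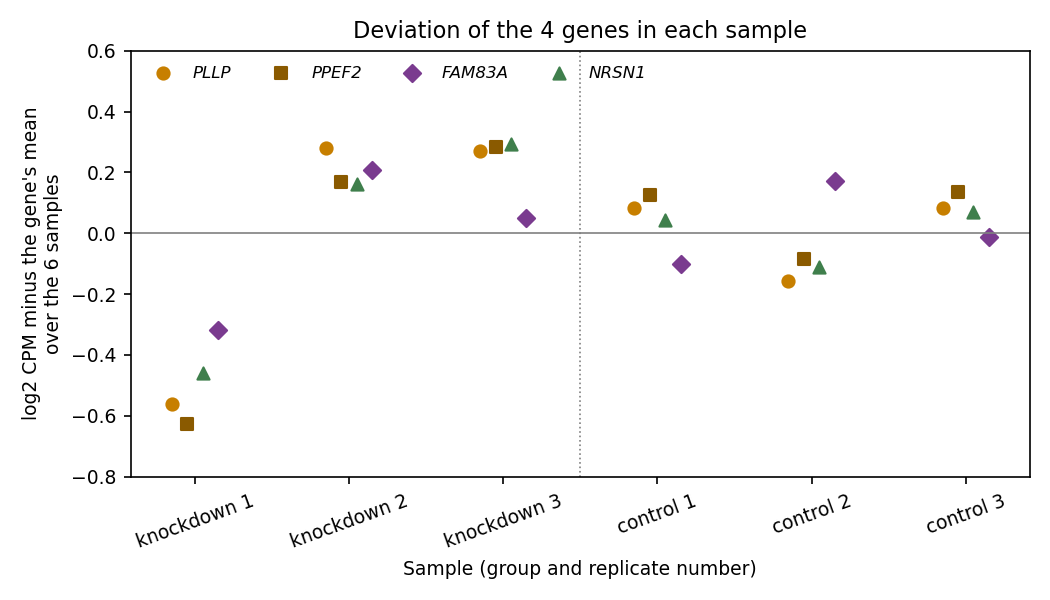
log2 CPM of each gene minus its own mean over the 6 samples (y axis) by sample (x axis), with the groups divided by a dotted line. Knockdown replicate 1 is the lowest for all 4 genes, and in control replicate 2 FAM83A lies above its mean while PLLP, PPEF2 and NRSN1 lie below theirs.

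Counts of the genes around the 4 loci are described without comparison to the 4 genes, which were chosen for theirs. Of the 13 genes that overlap a member or are the nearest protein-coding gene on a side, those quantified had no more than 320 counts in any sample. ARL2BP, which overlaps PLLP by 5089 bases on the opposite strand and encodes a binding partner of the GTPase ARL2, had 14 to 30 counts. RSPRY1 and CCL22, on either side of PLLP, had 82 to 155 and 43 to 72. USO1, a vesicle tether of the Golgi, and NAAA, a lysosomal amidase, flank PPEF2 with 10 to 29 and 16 to 36 counts. TBC1D31 and C8orf76 flank FAM83A with 256 to 320 and 10 to 28. By TPM, TBC1D31 had 395.4 to 572.0, above the values of ACTB and GAPDH given earlier. Near NRSN1, DCDC2 had 39 to 120 counts and HDGFL1, at 1554520 bases, had 0. Across both rules for picking neighbors, 8 had enough counts to be tested, and 0 of these were called by edgeR's exact test (0 with an unadjusted p below 0.05). Their log2 fold changes ran from -0.52 for USO1 to 0.17 for CCL22.

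Families and partners of the 4 genes were counted from lists of known members. Of the other 25 MARVEL and CMTM genes, 11 were tested and 0 called, with a median log2 fold change of -0.01 against 0.00 over all tested genes. The highest was CMTM7 with 222.9 to 419.3 TPM. Of the other 12 phosphatase catalytic subunits of the PPP family, 8 were tested and 0 called (median -0.21), the highest being PPP2CB, a catalytic subunit of PP2A, with 46.39 to 114.1 TPM. Of the other 7 FAM83 genes, 3 were tested and 0 called (median -0.06), led by FAM83F with 5.213 to 7.027 TPM. NRSN2, the other neurensin, had 18.78 to 32.95 TPM and a log2 fold change of -0.06 ± 0.20 (SE). Among 16 genes listed as ERBB and other signaling partners of FAM83A, 15 were tested and 0 called (median -0.24), with ERBB2 at 207.6 to 429.5 TPM. The 8 protein genes of the signal recognition particle and its receptor, partners of 7SL RNA, gave 7 tested and 0 called (median -0.39), and SRP14 had 80.50 to 233.8 TPM and SRP9 50.65 to 90.17 TPM. Of the 16 housekeeping mRNAs 0 were called, although all 16 had a lower mean in the knockdown (median -0.79), with summed TPM of 864.8 to 2413 in the knockdown and 1668 to 4338 in the controls. Of the 13 mitochondrial mRNAs 0 were called, and 11 were higher (median 0.15).

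Markers of myelinating glia, photoreceptors, neurons, squamous epithelium and leukocytes were also summed. The 4 genes were chosen for their counts, so lower levels of other genes follow from that choice and are not set against them. The 14 markers of SKOV3 and ovarian epithelium summed to 3362 to 6268 TPM in the knockdown and 3067 to 4463 TPM in the controls. Of 10 myelinating glia markers, 3 were tested, MAG was among those at 0 in every sample, and the highest was CNP with 145.7 to 211.7 TPM. Their summed level was 213.8 to 313.5 TPM in the knockdown and 231.2 to 265.9 TPM in the controls. Of 11 photoreceptor markers, 7 were tested, with a sum of 202.1 to 318.0 TPM in the knockdown and 242.6 to 264.1 TPM in the controls. Of 10 neuron markers, 3 were tested, SNAP25, NEFL, STMN2 and ELAVL4 were at 0, and the sum was 39.41 to 70.93 and 42.40 to 67.45 TPM. Of 9 squamous epithelial markers, 3 were tested, KRT5, KRT6A, IVL and SPRR1B were at 0, and the sum was 28.30 to 45.36 and 19.95 to 34.03 TPM. The 6 leukocyte markers summed to 130.8 to 146.8 and 122.4 to 135.5 TPM, with CD14 at 0. No marker of these lists was called.

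The leading transcripts of the genes next in rank matched none of the 33 structural RNAs by a 31-base word. BEST1, an anion channel of the retinal pigment epithelium, had 26509 to 46756 counts, and the exons of its leading transcript overlap those of FTH1, the ferritin heavy chain, on the opposite strand by 1267 bases. MIEN1 had 24569 to 42919 counts and overlaps ERBB2 in the same way by 571 bases. MMACHC, a cobalamin-processing protein, overlaps the peroxiredoxin PRDX1 by 501 bases, MRNIP the autophagy receptor SQSTM1 by 895 and ATP6V1C2, a proton pump subunit, the disulfide isomerase PDIA6 by 1033. The genes on the opposite strand had 85 to 550 counts for FTH1, 311 to 872 for ERBB2, 19 to 82 for PRDX1, 205 to 267 for SQSTM1 and 7 to 48 for PDIA6, in each case fewer than the gene they overlap. TTN, at rank 10, overlaps TTN-AS1 by 12813 bases. These overlaps were looked up after the ranks were known. None of the 6 genes was called, and their log2 fold changes ran from -0.34 ± 0.10 (SE) for MIEN1 to 0.16 ± 0.16 (SE) for TTN.

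**Figure D5:**
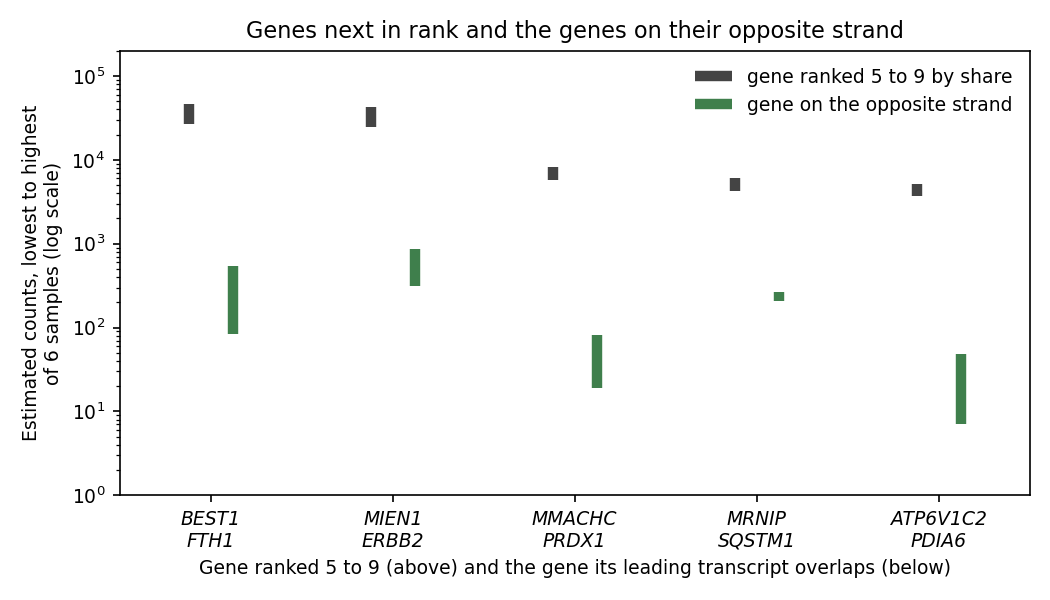
Lowest to highest estimated count over the 6 samples (y axis, log scale) of the 5 genes ranked 5 to 9 by share of counts (grey) and of the gene on the opposite strand whose exons overlap their leading transcript (green). BEST1 spans 26509 to 46756 counts and FTH1 85 to 550.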

How the data were processed

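Samples were grouped by their labels. Per the labels and the study's methods, the authors made stranded, ribosomal RNA-depleted total RNA libraries and quantified paired reads with kallisto 0.43.0, and the deposited files give an estimated count without normalization and a TPM for each of 173259 transcripts. Of these, 155518 are in GENCODE release 44 (GRCh38), and the other 17741 held 4.785% to 6.384% of a sample's counts and stayed out of gene sums. Annotated sequences had the deposited length for 129985 transcripts.

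Counts were summed per gene, rounded, filtered with filterByExpr (minimum count 10), scaled by TMM and tested with edgeR 4.0.16's exact test in R 4.3.3. CPM used TMM-scaled library sizes, and log2 CPM a prior count of 2. SE come from the spread of log2 CPM between replicates. The code was tested on simulated data. Structural RNAs were searched with blastn 2.17.0 and by exact 31-base words on both strands. The alternatives included a quasi-likelihood fit in edgeR (without and with a replicate block), DESeq2 1.42.0, other scalings, filters and counts, and each sample left out.

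The members and gene lists were chosen with earlier results of these data known. Genes named in the text are the members, the genes ranked 5 to 10 by mean share, overlapping and nearest protein-coding genes, the tested genes with the highest correlation to each member, up to 3 genes of each list with the highest mean level, structural RNAs matched by a leading transcript, and called genes. Genes at 0, those that share 31-base words and those on opposite strands were named after their values were seen. Some sequences and genes are not reported here.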

Additional observations from a re-analysis of the deposited data

How the results depend on the processing

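The log2 fold changes of PLLP, PPEF2, FAM83A and NRSN1 passed the threshold under none of the alternatives run. Their SE of 0.18 to 0.30 limits the change that can be resolved, and their sign was not stable. In the quasi-likelihood fit with a replicate block, PLLP had -0.0043, and the values were -0.12 for PPEF2, -0.04 for FAM83A and 5.045e-05 for NRSN1. Samples with the same number did not deviate together (r = -0.3959, -0.3365 and 0.2326), so the numbers were not read as pairs. Leaving out each sample in turn gave -0.10 to 0.28 for PLLP, -0.24 to 0.17 for PPEF2, -0.15 to 0.12 for FAM83A and -0.12 to 0.24 for NRSN1. The signs changed without knockdown replicates 2 or 3 or control replicate 2 (PLLP and NRSN1), without knockdown replicate 1 (PPEF2 and FAM83A) and without control replicate 2 (FAM83A). The differences in share ran from -0.8310 to 2.452 percentage points for PLLP, -0.9613 to 0.3321 for PPEF2, -0.3197 to 0.2025 for FAM83A and -0.1575 to 0.2901 for NRSN1 when samples were left out, and kept their sign as shares of all transcripts or of TPM.

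The number of called genes was 1 with the exact test, 0 with edgeR's quasi-likelihood test with or without the replicate block and with DESeq2 (346, 160 and 192 genes at an unadjusted p below 0.05 without the block, with it and by DESeq2), 2 with no filter, 2 with at least 1 CPM in 3 samples, 3 with length-scaled TPM counts, 5 with transcripts outside the annotation kept, and 1 to 3 with a sample left out. A blastn match of at least 100 bases, run without the U3 copy at the FAM83A locus, kept 0 of the 3 members matched at 50, and 31-base words, with that copy, matched 4. The cause of the other changes was not tested.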

Other observations

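Within samples, PPEF2 had 33.73, 32.72 and 35.62 counts per 100 counts of PLLP in the knockdown and 36.38, 37.18 and 36.69 in the controls, so that the groups did not overlap (34.02 ± 1.473 and 36.75 ± 0.4061, SD, n = 3 each; two-sided exact permutation p = 0.1, the smallest the design allows). This ratio was chosen after the values were seen, as 1 of 3. Only ratios to PLLP were computed, so the separation is not shown to be particular to this pair of genes. For NRSN1 the ratio to PLLP was 15.94 ± 1.200 and 15.86 ± 0.4890 (exact permutation p = 1, n = 3 each), and for FAM83A 22.37 ± 3.761 and 22.96 ± 4.549 (exact permutation p = 0.8, n = 3 each). Over the 6 samples the highest ratio was 1.136 times the lowest for PPEF2, 1.162 times for NRSN1 and 1.465 times for FAM83A.

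The transcript with the sixth largest mean count, ENST00000625158, is outside the annotation used here, and it had 54100 counts in knockdown replicate 1 against 18876 to 28857 in the other 5 samples.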
